A study of Homo sapiens with 2 samples.

Results

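The 9 genes described here encode 6 ligands of the epidermal growth factor (EGF) receptor, namely AREG, EREG, HBEGF, TGFA, BTC and EGF, and 3 receptors of the ERBB family, EGFR, ERBB2 and ERBB3. They were chosen by symbol, and all 9 were found among the 25343 gene entries of each library. RNA was sequenced from Huh7, an established line of human hepatocellular carcinoma described as well differentiated, after 6 days in low glucose medium (0.45 g/L) or in high glucose medium (4.5 g/L). Each medium is represented by 1 library, with no genetic change in either, and cells passaged during that time were restricted to live ones, per the labels' protocols. The choice of genes was made with the low against high glucose values known, so their differences are a description and no test is given for them.

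ERBB ligands are made as membrane-anchored precursors and act once proteases of the ADAM family release them. EGFR binds all of the ligands described here, and HBEGF, BTC and EREG also bind ERBB4. ERBB2 has no known soluble ligand of its own and ERBB3 has a weak kinase, so these receptors signal as partners in dimers. In liver, EGFR signalling takes part in hepatocyte proliferation during regeneration, and amphiregulin is made by injured liver and by hepatocellular carcinoma cells.

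The promoter sequences of the 3 genes with the largest differences among the 6 EGF receptor ligands are shown first, because 2 of them, AREG and EREG, neighbour each other on chromosome 4. Each runs over the 250 bases before the start of transcription, 5′ to 3′ on the gene's strand, from RefSeq on build GRCh38.p14, and capitals mark the motif matches described after them.
AREG: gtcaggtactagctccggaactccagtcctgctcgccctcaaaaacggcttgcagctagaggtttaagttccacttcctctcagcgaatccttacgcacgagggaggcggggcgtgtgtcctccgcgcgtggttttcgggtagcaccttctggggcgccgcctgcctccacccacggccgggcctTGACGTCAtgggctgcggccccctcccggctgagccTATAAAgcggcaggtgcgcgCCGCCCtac
EREG: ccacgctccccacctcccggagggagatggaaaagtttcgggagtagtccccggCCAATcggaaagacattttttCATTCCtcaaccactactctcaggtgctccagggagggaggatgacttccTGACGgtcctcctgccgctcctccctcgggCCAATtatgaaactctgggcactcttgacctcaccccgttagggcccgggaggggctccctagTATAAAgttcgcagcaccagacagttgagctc
HBEGF: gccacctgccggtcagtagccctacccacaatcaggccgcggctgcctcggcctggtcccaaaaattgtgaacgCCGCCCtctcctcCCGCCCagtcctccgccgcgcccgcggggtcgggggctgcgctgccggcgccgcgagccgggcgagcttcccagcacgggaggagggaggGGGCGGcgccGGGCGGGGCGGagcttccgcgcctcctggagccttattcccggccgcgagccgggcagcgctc
These windows lie at chr4:74444886-74445135 (plus strand) for AREG, chr4:74364895-74365144 (plus strand) for EREG and chr5:140346604-140346853 (minus strand) for HBEGF.

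Searched on both strands were 9 motifs. The AREG window held the full cyclic AMP response element (CRE, TGACGTCA), 65 to 58 bases before the start. This motif was present in 1.65% of the 35116 promoter windows of the same length. The AREG window also held a TATA box (TATAAA) from 29 to 24 bases before the start and a GC box (GGGCGG) on the reverse strand. In the EREG window the CRE was absent, and its half-site (TGACG) stood 125 to 121 bases before the start. That half-site is part of the full element, so every window with a CRE also counts among the 21.2% of windows that held it. The EREG window shared with AREG a TATA box, here 32 to 27 bases before the start, which 10.7% of all windows held. It also held the CCAAT box (CCAAT) at 2 places and the TEAD motif (CATTCC), which were present in 32.0% and 11.9% of all windows. The HBEGF window had 5 GC boxes and no match to the other 8 motifs, and 2 of these boxes overlapped by 1 base. GC boxes were present in 42.6% of all windows. The AP-1 motif (TGANTCA, 6.57% of windows), the composite site of ATF4 and C/EBP factors (TGATGNAA, 3.14%) and the E box (CACGTG, 6.34%) had no match in these 3 windows. RefSeq windows were matched for 8 of the 9 genes, and ERBB3 had no match. Motifs of the 3 windows shown also occurred in windows of the other genes. An EGFR window held the TATA box, a TGFA window the CRE half-site, and the EGF window the CCAAT box and the TEAD motif. AP-1 matches lay in windows of EGF, EGFR and ERBB2. A match is a description of letters in a window and not of a bound site.

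Values are TPM, a transcript level corrected for transcript length that is scaled to the same total in each library, so levels of different genes can be set beside each other. AREG, EREG and HBEGF stood higher in low glucose, BTC was higher by less, TGFA and EGF were almost undetected in either medium, and the 3 receptors stood at 1.29 to 1.56 times their high glucose level. A gene was compared where its mean over the low and high glucose libraries reached 1 TPM. Differences are log2(TPM + 1) in low glucose less the same in high glucose, and the 2-fold rule was met upward from 1 and downward from -1. Genes of low level have smaller differences on this scale than their plain ratio gives. Of the 9 genes, 7 reached the level compared, 3 of them met the rule upward and 0 downward. Among all 13745 genes compared, 3.65% met the rule upward and 1.10% downward. Because the 9 genes were selected on this contrast, nothing is read from their count or their median against that background. EREG and BTC also reached the level compared only through their low glucose values. The median difference of the 7 genes was 0.72, beside 0.05 for all genes compared, where the 25th and 75th percentiles were -0.23 and 0.35 and 54.6% of genes lay above 0.

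**Figure D1:**
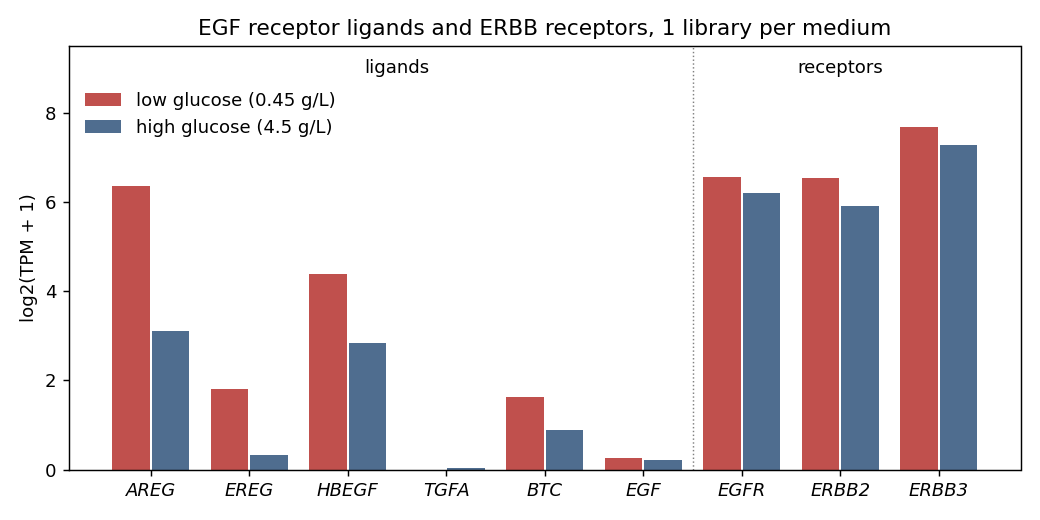
Bars give log2(TPM + 1) of each ligand and receptor gene in low glucose (red) and high glucose (blue), 1 library per medium and therefore without error bars. AREG reaches 81.4 TPM in low glucose against 7.67 TPM in high glucose, close to the level of EGFR in the same low glucose library, while TGFA and EGF lie at or near 0.

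AREG encodes amphiregulin, a ligand of EGFR. It stood at 81.4 TPM in low glucose and 7.67 TPM in high glucose, a log2 difference of 3.25 and a ratio of 10.6. This was the 10th largest difference upward among the 13745 genes compared. By level AREG ranked 2189th of the 25343 entries in low glucose and 9936th in high glucose. The authors' AREG interval (hg19, chromosome 4, 75310815 to 75490485) is 179671 bases long, while the RefSeq gene on GRCh38.p14 is 9870 bases long and lists AREGB as another name of AREG. The hg19 interval spans near-identical copies of the gene, and 0 entries were named AREGB. The AREG value may therefore include reads of both copies, and how reads were divided between them is not given in the sources used here.

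HBEGF encodes the heparin-binding ligand, whose membrane-bound precursor is also the receptor for diphtheria toxin (hg19, chromosome 5, 139712428 to 139726188). Its level was 19.9 TPM in low glucose and 6.15 TPM in high glucose, a log2 difference of 1.54 and a ratio of 3.23. It ranked 133rd by difference upward. AREG was thus 4.10 times the level of HBEGF in low glucose and 1.25 times in high glucose.

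EREG encodes epiregulin, which binds EGFR and ERBB4 (hg19, chromosome 4, 75230860 to 75254477). It was measured at 2.51 TPM in low glucose and 0.25 TPM in high glucose, a log2 difference of 1.49. The plain ratio, 10.0, was near that of AREG, but it rests on a level of under 1 TPM in high glucose, and with a pseudocount of 5 the difference shrank to 0.52 and missed the rule. BTC encodes betacellulin, which also binds EGFR and ERBB4 (hg19, chromosome 4, 75671448 to 75719882). Its level was 2.07 TPM in low glucose and 0.86 TPM in high glucose, a log2 difference of 0.72 that fell short of the rule. With a pseudocount of 0.1 it met the rule, at 1.18.

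EGF, the founding ligand, was listed at 0.20 TPM in low glucose and 0.16 TPM in high glucose (hg19, chromosome 4, 110834040 to 110934118). TGFA, which encodes transforming growth factor alpha, was listed at 0 TPM in low glucose and 0.02 TPM in high glucose (hg19, chromosome 2, 70674412 to 70781147). Both genes were below the level compared, and no difference is given for them. The number of reads behind a TPM value was not determined, so these low values carry no counting interval.

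Summed over the 6 ligand genes, the level was 106 TPM in low glucose and 15.1 TPM in high glucose, a ratio of 7.01. AREG made up 76.8% of that sum in low glucose and 50.8% in high glucose. HBEGF made up 18.7% in low glucose and 40.7% in high glucose. Without AREG the ligand sums were 24.6 TPM in low glucose and 7.44 TPM in high glucose, a ratio of 3.31. The order by level in low glucose was AREG, HBEGF, EREG, BTC, EGF and TGFA. In high glucose BTC stood above EREG, and the order was otherwise the same. With 1 library per medium, whether neighbours in these orders differ beyond culture-to-culture variation cannot be told.

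In low glucose the AREG transcript level came close to those of EGFR and ERBB2. In high glucose each receptor transcript was far more abundant than any ligand transcript. ERBB3, the receptor with the weak kinase and a main partner of ERBB2, was the most abundant, at 204 TPM in low glucose and 154 TPM in high glucose (hg19, chromosome 12, 56473809 to 56497291). Its log2 difference was 0.40. EGFR stood at 94.0 TPM in low glucose and 72.8 TPM in high glucose, a log2 difference of 0.36 (hg19, chromosome 7, 55086725 to 55275031). ERBB2, the receptor without a known ligand, stood at 91.5 TPM in low glucose and 58.8 TPM in high glucose, a log2 difference of 0.63 (hg19, chromosome 17, 37844337 to 37884915). All 3 receptor genes lay within 2-fold. A larger difference upward was seen in 24.3% of all genes compared for EGFR, 21.9% for ERBB3 and 11.3% for ERBB2. Counted in either direction, these shares were 40.0% for EGFR, 35.7% for ERBB3 and 16.2% for ERBB2. The EGFR interval overlaps the antisense gene EGFR-AS1, listed at 5.46 TPM in low glucose and 5.91 TPM in high glucose. Whether the libraries keep strand is not given in the sources used here, so reads of these overlapping genes may not be told apart.

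The composition of the receptor pool was close in both media. ERBB3 made up 52.4% of the summed receptor TPM in low glucose and 54.0% in high glucose. EGFR made up 24.1% in low glucose and 25.5% in high glucose, and ERBB2 23.5% in low glucose and 20.6% in high glucose. The receptor sums were 389 TPM in low glucose and 286 TPM in high glucose, a ratio of 1.36. The ligand sum amounted to 27.2% of the receptor sum in low glucose and 5.29% in high glucose. In such bulk samples, a change in the number of cells that make a transcript and a change in its amount per cell cannot be told apart.

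**Figure D2:**
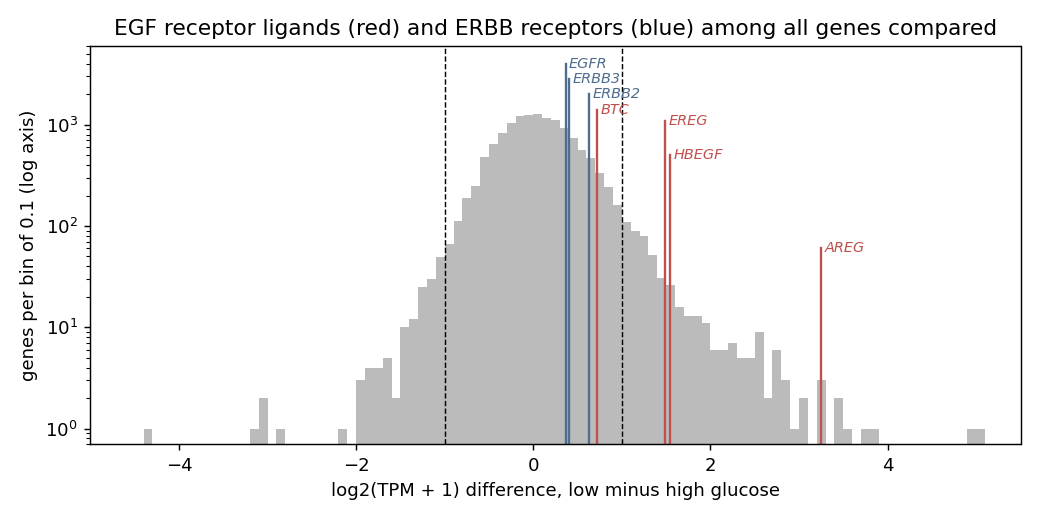
The grey histogram shows the log2(TPM + 1) difference, low minus high glucose, of the 13745 genes compared, with genes per bin of 0.1 on a log axis and dashed lines at the 2-fold rule. The coloured lines, whose heights carry no value, mark the 4 ligand genes compared (red) and the 3 receptor genes (blue). AREG lies far out at 3.25, and HBEGF and EREG lie near 1.5. The receptors lie within 2-fold at 0.36 to 0.63, above the 75th percentile of all genes compared (0.35).

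The genes nearest in difference at a like mean level (within 1.5-fold) were listed for the ligand genes that met the rule. For AREG these were ATF3 (82.7 TPM in low glucose and 7.79 TPM in high glucose) and SH3BP2 (75.9 TPM in low glucose and 6.98 TPM in high glucose). HBEGF was matched by NEDD9 (15.2 TPM in low glucose and 4.51 TPM in high glucose) and GCKR (26.2 TPM in low glucose and 8.46 TPM in high glucose). EREG was matched by FAM129A (2.88 TPM in low glucose and 0.32 TPM in high glucose) and VLDLR-AS1 (1.94 TPM in low glucose and 0.10 TPM in high glucose). The measure rests on 2 libraries, so it describes closeness of a single difference and not a shared pattern.

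Several ligand genes sit in a cluster on chromosome 4, beside a group of chemokine genes. Within 500 kb of the AREG interval lay 11 other entries, of which 8 reached the level compared, 3 met the rule upward and 0 downward. Over all genes compared, these shares were 3.65% upward and 1.10% downward. The window was centred on AREG and the 3 include EREG, both selected on this contrast, so nothing is read from this count. EREG ends 56.3 kb before the AREG interval, and it is the nearest entry. EPGN, which encodes the ligand epigen and ends 128 kb before the interval, stood at 1.68 TPM in low glucose and 1.84 TPM in high glucose, a difference of -0.08. It thus lies on the far side of EREG and was nearly level. MTHFD2L, a mitochondrial folate enzyme gene, stood at 3.72 TPM in low glucose and 1.76 TPM in high glucose (0.77), and met the rule with a pseudocount of 0.1 (1.04). BTC starts 181 kb after the interval.

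The other 2 genes of this region that met the rule encode neutrophil-attracting chemokines. CXCL2 stood at 21.7 TPM in low glucose and 8.89 TPM in high glucose, and CXCL3 at 18.4 TPM in low glucose and 7.45 TPM in high glucose. Both missed the rule with a pseudocount of 5, at 0.94 and 0.91. The related CXCL5 was nearly level, at 121 TPM in low glucose and 108 TPM in high glucose. PARM1, beyond BTC, stood at 24.1 TPM in both media. PF4, PPBP and PPBPP2 reached at most 0.13 TPM. Higher values in low glucose were thus interspersed in this region with genes near a difference of 0.

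**Figure D3:**
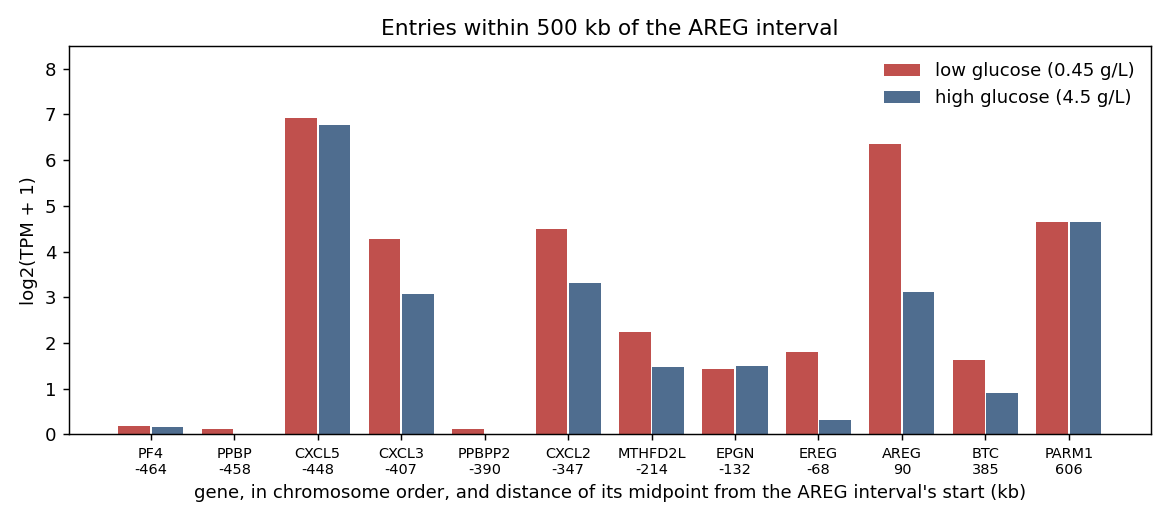
Bars give log2(TPM + 1) in low glucose (red) and high glucose (blue) for AREG and the 11 other entries within 500 kb of its interval, in chromosome order, each with the distance in kb from the start of the AREG interval to its midpoint. AREG shows the widest gap (3.25), EREG, CXCL2 and CXCL3 are also past 2-fold, and EPGN, CXCL5 and PARM1 are nearly level.

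The other ERBB ligand and receptor genes completed the family. NRG1, which encodes neuregulin 1, a ligand of ERBB3 and ERBB4, stood at 20.9 TPM in low glucose and 5.03 TPM in high glucose, a log2 difference of 1.86. In low glucose its level was thus close to that of HBEGF. NRG3 was just above the level compared, at 1.81 TPM in low glucose and 1.10 TPM in high glucose (0.42). ERBB4, the receptor absent from the 9 genes, was listed at 0.70 TPM in low glucose and 0.83 TPM in high glucose, below the level compared. NRG2 (0.05 TPM in low glucose, listed at 0 in high glucose) and NRG4 (listed at 0 in low glucose, 0.08 TPM in high glucose) were almost undetected.

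Sheddases cut the ligands from the cell surface, and iRhoms carry ADAM17 to it. Of 13 such genes and their inhibitors, 11 were compared, 0 met the rule in either direction, and 10 lay above 0, with a median difference of 0.49. Over all genes compared, 54.6% lay above 0 and the median was 0.05, which also stand beside the list counts that follow. ADAM9 stood at 349 TPM in low glucose and 248 TPM in high glucose (0.49), and ADAM10, which releases EGF and BTC, at 105 TPM in low glucose and 88.6 TPM in high glucose (0.25). Named after their values were seen, ADAM17, the main sheddase of AREG, HBEGF and TGFA, stood at 34.8 TPM in low glucose and 25.2 TPM in high glucose (0.45), and RHBDF2, an iRhom, at 22.9 TPM in low glucose and 11.3 TPM in high glucose (0.96). RHBDF2 had the largest difference of this list, fell just short of the rule, and met it with a pseudocount of 0.1 (1.01).

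Below the receptors, genes of the signalling chain lay on both sides of 0. Of 17 adaptor and RAS-ERK cascade genes, all of them compared, 0 met the rule, 7 lay above 0 and 10 below, and the median was -0.06. The most abundant were MAP2K2, a kinase of ERK, at 176 TPM in low glucose and 175 TPM in high glucose, and PTPN11, the phosphatase SHP2, at 113 TPM in low glucose and 112 TPM in high glucose. Of 16 genes of the PI3K-AKT, PLCG and STAT branch, 15 were compared, 1 met the rule upward and 1 downward, with a median of 0.00. SRC, a tyrosine kinase that acts with EGFR, stood at 73.3 TPM in low glucose and 31.2 TPM in high glucose (1.21). PIK3R3, a regulatory subunit of PI3 kinase, stood at 4.66 TPM in low glucose and 11.5 TPM in high glucose, a difference of -1.14 that missed the rule with a pseudocount of 5 (-0.77). The most abundant of this branch, PIK3R2 (87.9 TPM in low glucose and 117 TPM in high glucose) and PLCG1 (98.0 TPM in low glucose and 90.6 TPM in high glucose), were within 2-fold.

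A list of inhibitors of ERBB or RAS signalling, phosphatases and ubiquitin ligases held 21 genes. Of these, 18 were compared and 0 met the rule, with 14 above 0, 4 below and a median of 0.17. ERRFI1 (MIG6), a feedback inhibitor that binds the EGFR kinase, stood at 243 TPM in low glucose and 133 TPM in high glucose (0.87). LRIG3, of a family of membrane proteins known to act on receptor tyrosine kinases, stood at 121 TPM in low glucose and 61.1 TPM in high glucose (0.97). Both fell short of the rule, and both met it when the median of genes of like level was subtracted (1.03 for ERRFI1 and 1.09 for LRIG3).

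Genes known to respond to ERK signalling were split. Of 14 such genes, 13 were compared, 1 met the rule upward and 1 downward, 8 lay above 0 and 5 below, and the median was 0.51. FOSL1, an AP-1 transcription factor subunit, stood at 7.56 TPM in low glucose and 0.78 TPM in high glucose (2.27). Like EREG it rests on a level of under 1 TPM in high glucose, and its difference was 1.12 with a pseudocount of 5. CCND1, which encodes cyclin D1, stood at 91.3 TPM in low glucose and 241 TPM in high glucose (-1.39). MYC, a transcription factor of growth, stood at 198 TPM in low glucose and 105 TPM in high glucose (0.91), and met the rule when the median of genes of like level was subtracted (1.07). Over the 6 lists of pathway genes, 77 of 87 genes were compared, of which 3.90% met the rule upward and 2.60% downward, beside 3.65% and 1.10% of all genes compared.

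**Figure D4:**
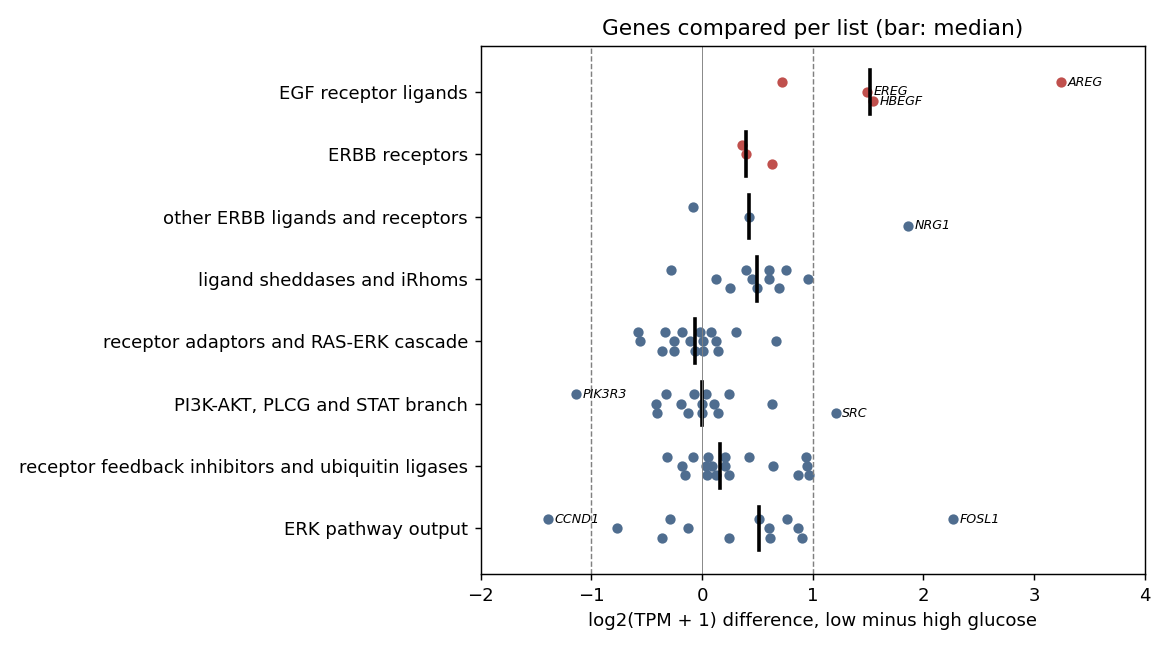
Each point is the log2(TPM + 1) difference, low minus high glucose, of a gene in its list (red for the ligands and receptors described here, blue for the other pathway lists), black bars are list medians and dashed lines the 2-fold rule. The ligands spread from 0.72 to 3.25, while the cascade genes centre near 0 and the named points are those past the rule.

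The liver label was checked with 8 liver cell markers, all compared and none past the rule. Their summed level was 34336 TPM in low glucose and 40312 TPM in high glucose. The most abundant was AFP, at 16441 TPM in low glucose and 20859 TPM in high glucose. Of the 8 differences, 3 lay above 0 and 5 below, with a median of -0.20. TTR fell just short of the rule downward, at 682 TPM in low glucose and 1351 TPM in high glucose (-0.99). Named after their values were seen, 2 of the 3 above 0 were FGB and TF. FGB stood at 927 TPM in low glucose and 617 TPM in high glucose (0.59). TF stood at 2315 TPM in low glucose and 1727 TPM in high glucose (0.42). Of 8 markers of white blood cells, endothelium and fibroblasts, 4 were compared and none was at 0 in either library. Their sum was 48.2 TPM in low glucose and 25.9 TPM in high glucose, mostly CD68 (39.3 TPM in low glucose and 20.4 TPM in high glucose). COL1A1, a collagen gene, met the rule at 4.03 TPM in low glucose and 1.06 TPM in high glucose, and missed it with a pseudocount of 5 (0.58). COL3A1, another collagen gene, was within 2-fold, at 2.91 TPM in low glucose and 2.09 TPM in high glucose (0.34). PTPRC stood at 0.50 TPM in low glucose and 0.83 TPM in high glucose, PECAM1 at 1.25 TPM in low glucose and 1.35 TPM in high glucose, and VWF, DCN and CD3E at 0.12 TPM or less. The part of these markers in the ligand values was not tested.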

How the data were processed

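The authors deposited gene-level TPM, a unit stated per the file headers, with a gene symbol and an hg19 interval per entry. The submitters' processing notes name cutadapt, RSEM 1.2.21 and hg19; aligner, annotation, read number and strandedness were not given in the sources used here. Because TPM totals are fixed, more of some transcripts lowers the values of the rest, and the unit keeps no depth, so no counting interval is given. Groups came from the treatment labels. Genes with a mean of at least 1 TPM were compared by log2(TPM + 1), low minus high glucose, with a pseudocount of 1 and a threshold of 2-fold; with 1 library per medium no test or p-value is possible and no value has a replicate check.

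The 9 genes, the gene lists, the naming rule and the alternatives were chosen with earlier results of these data known. All list genes that met the rule with at least 5 TPM in either library (at most 5 per list), the 2 most abundant genes per list, all entries within 500 kb of AREG and the 2 nearest genes per ligand were named. The 9 promoter motifs were chosen after the values were seen. Alternatives were 3 other scalings, 2 pseudocounts, 2 filters, 2 thresholds and, added after seeing the data, trimmed-mean scaling and subtraction of the median of 20 level groups. The fold rule was tested on simulated data. Promoter windows and gene lengths are RefSeq's on GRCh38.p14, used for names, lengths and sequences only. Calculations used Python 3.11.15, numpy 2.4.6, pandas 2.3.3 and matplotlib 3.10.9.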

Additional observations from a re-analysis of the deposited data

How the results depend on the processing

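The count of EGF receptor ligand and ERBB receptor genes at least 2-fold higher in low glucose was 3 as reported. It was 5 at a threshold of 1.5-fold, with BTC and the receptor ERBB2 added, and 1 (AREG) at 3-fold. Under the other 9 alternatives it ran from 2 to 4, and the count lower stayed at 0 under all 11. AREG met the rule under each alternative (2.77 to 3.39), HBEGF under all but the 3-fold threshold (1.16 to 1.67), and EREG missed it at 3-fold and with a pseudocount of 5 and was left out by the filter at 10 TPM. Pathway genes at least 2-fold higher, 3 as reported, numbered 5 with a pseudocount of 0.1, 20 at 1.5-fold and 6 with level group medians subtracted. Those lower, 2 as reported, numbered 1 with a pseudocount of 5, 1 among genes of at least 10 TPM and 0 at 3-fold. Of all genes compared, 502 were higher and 151 lower as reported, against 234 and 79 with a pseudocount of 5, 1786 and 835 at 1.5-fold and 119 and 22 at 3-fold, and 293 were higher among genes of at least 10 TPM. A looser or stricter threshold, the filter at 10 TPM and the pseudocounts change counts by construction, since a larger pseudocount shrinks each difference. For the level group medians the cause was not tested. Among 427 values of 40 of the named genes at the level compared under the alternatives, 394 kept their side of the threshold. Of the rest, 19 no longer met it, 14 newly met it and 0 changed direction while past it. With other scalings the median over all genes compared lay between -0.0032 and 0.076, beside 0.049 as reported. No paired analysis was possible because each medium has 1 library. Depth was not determined, so values under about 1 TPM carry an unknown counting error.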
